A study of Mus musculus with 4 samples.

Results

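The genes of MHC class I antigen presentation were followed in mouse embryonic fibroblasts (MEFs) cultured with or without pigment epithelium-derived factor (PEDF), a secreted protein of the serpin family. The members were 10 genes chosen by name, H2-K1, H2-D1, H2-T23, H2-Q4, B2m, Tap1, Tap2, Tapbp, Erap1 and Nlrc5, and each matched 1 row of the deposited count matrix, so that 10 of its 55487 genes are described. All 10 passed the filter on low counts that left 19384 genes for testing. The 4 libraries were poly(A) RNA-seq libraries from primary MEFs of wild-type mid-gestation C57BL/6J embryos, labelled as passage 2 (the study's text names a later passage) and kept in culture medium with fetal bovine serum. The 2 PEDF libraries came from cells given PEDF at 100 ng/mL for 24 h (the protein had been purified from mammalian cells), and the 2 control libraries came from cells without PEDF. Each of 2 independent experiments gave 1 control and 1 PEDF library and used its own embryos, so that control 1 and PEDF 1 share a cell preparation, as do control 2 and PEDF 2. The question was whether PEDF changed gene expression in MEFs. Cultured MEFs are a mixed population from whole embryos, and serum, itself a source of growth factors, was present in all groups.

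MHC class I molecules display short peptides of the cell's own proteins to CD8 T cells and are made by nearly all nucleated cells. A heavy chain, encoded in the mouse by the H2 genes, pairs with the invariant light chain beta-2 microglobulin, and peptides cut by the proteasome are pumped into the endoplasmic reticulum by the TAP transporter, loaded with the help of tapasin and trimmed by the aminopeptidase ERAP1. The transactivator NLRC5 acts at the promoters of many of these genes, which also carry elements bound by NF-κB and interferon regulatory factors. Fibroblasts hold class I genes at a basal level and raise them in response to interferons.

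The promoter elements of H2-K1, H2-D1, H2-Q4 and B2m are shown because these 4 genes share a pair of regulatory motifs. In the 200 bases upstream of the annotated start (RefSeq, GRCm38.p6; 8 of the 10 members matched, Tap2 and Nlrc5 did not), the interferon regulatory factor motif AANNGAAA, searched on both strands, was found in 5 of 8 members, namely H2-K1, H2-D1, H2-T23, H2-Q4 and B2m. Of 32851 promoters of the same length, 17% held it. A κB motif, also searched on both strands, was found in 4 of 8 members, H2-K1, H2-D1, H2-Q4 and B2m, and in 6.07% of all promoters. Both motifs together were found in 0.703% of all promoters. On either strand, CCAAT was present in 6 of 8 members against 29.3% of all promoters, and TGACG in 5 of 8 against 15.7%. In H2-K1, B2m and Tapbp the CCAAT match lies on the opposite strand, so that the printed strand reads ATTGG. Exons of the GENCODE annotation, counted for any gene on either strand, cover the windows of H2-D1, H2-Q4, Tap1, Tapbp and Erap1 wholly and that of H2-T23 largely. The H2-Q4 window ends just before the GENCODE start of H2-Q4, so the exons that cover it belong to other genes. The RefSeq start of Tapbp lies 3579 bases from the GENCODE start. In the sequences below, capitals mark matches to the κB and the interferon regulatory factor motif, which lie next to each other in all 4 genes. The full window is given for H2-K1 (chr17:34000348-34000547, minus strand) and B2m (chr2:122147487-122147686, plus strand).
H2-K1 promoter: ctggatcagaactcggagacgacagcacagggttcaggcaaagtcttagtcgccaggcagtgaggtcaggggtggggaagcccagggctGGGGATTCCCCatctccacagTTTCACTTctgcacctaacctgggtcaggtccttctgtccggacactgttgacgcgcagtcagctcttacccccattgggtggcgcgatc
B2m promoter: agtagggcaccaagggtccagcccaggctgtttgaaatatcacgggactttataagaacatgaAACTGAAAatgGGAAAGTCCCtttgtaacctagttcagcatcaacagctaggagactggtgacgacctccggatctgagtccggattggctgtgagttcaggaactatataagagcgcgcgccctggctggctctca
Of the heavy chain genes H2-K1, H2-D1 and H2-Q4 the paired elements are compared, at chr17:34000430-34000458 (minus strand), chr17:35262923-35262951 (plus strand) and chr17:35379443-35379471 (plus strand).
H2-K1 element: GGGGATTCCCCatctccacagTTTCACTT
H2-D1 element: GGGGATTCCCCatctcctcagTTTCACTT
H2-Q4 element: GGGGATTTCCCatctccccagTTTCACTT
In these 3 heavy chain genes the κB motif comes first, 5′ to 3′, and the other motif lies on the opposite strand. In B2m the order is the other way round. A motif match describes the letters only, and no binding was measured.

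The libraries held 14722848 to 18144640 counts, and 22135 to 22647 genes had at least 1 count. A count of 0 allowed a level of up to 0.168 to 0.203 CPM (the count scaled to library size), taking 3 counts as the limit. The libraries had the markers of fibroblasts, with 9 of 9 fibroblast markers tested and a summed level of 35440 to 44304 CPM. With the experiment as a block, in which 3.75% of all genes were called, 5 of these 9 were called between PEDF and control. Those lower were Col1a1, Col1a2 and Pdgfrb (log2 fold changes -0.24, -0.12 and -0.22), and those higher were Dcn and Lum (0.35 and 0.34). With the trend of fold change with gene length removed as well, 2 of the 9 were called higher and 2 lower, against 2.22% of all genes. Without the block 0 of the 9 were called. The part of these shifts in the values below was not tested. Endothelial markers summed to 16.0 to 16.7 CPM, with Tie1 at 0 counts, and epithelial markers to 5.2 to 8.0 CPM. T, B and NK cell markers summed to 1.42 to 2.02 CPM, and Cd8a, Ncr1 and Klrb1c had no count in any library. All 12 macrophage markers had counts, with sums of 192 and 123 CPM in control 1 and control 2 and of 198 and 160 CPM in PEDF 1 and PEDF 2. Macrophages also express class I genes, and their part in the values below was not tested. In bulk RNA, fewer cells of a type and less RNA per cell cannot be told apart.

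Levels were compared between genes in the deposited TPM, which scale counts by gene length and library. B2m stood far above all other members, with 657 TPM in control 1, 632 in control 2, 679 in PEDF 1 and 668 in PEDF 2. Its mean of 659 TPM was 11.1 times that of the next gene and higher than that of 99.2% of all genes tested. H2-D1 (59.1 TPM ± 2.16, SD, n = 4) and Tapbp (58.7 TPM ± 4.64) followed, and their order could not be told, since H2-D1 was the higher in 2 of 4 libraries. H2-K1 came next with 34.0 TPM ± 1.82, below Tapbp in 4 of 4 libraries. H2-Q4 was at 14.5 TPM ± 1.04. Tap1 and Erap1, at 12.3 TPM each, overlapped and had no order. Tap2 was at 6.03 TPM ± 0.75 and H2-T23 at 3.89 TPM ± 0.57. Nlrc5 had the lowest level, 0.60 TPM ± 0.16, which was above only 12.7% of the genes tested. Apart from the overlapping pairs H2-D1 with Tapbp and Tap1 with Erap1, each gene was above the next in 4 of 4 libraries. This order rests on the summed exon length of each gene, to which the deposited TPM correspond. Tap1 has 5476 such bases but a longest transcript of 3911, and Erap1 has 7280 and 5644, while H2-Q4 has 2596 for both. The order by transcript length was not tested.

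**Figure D1:**
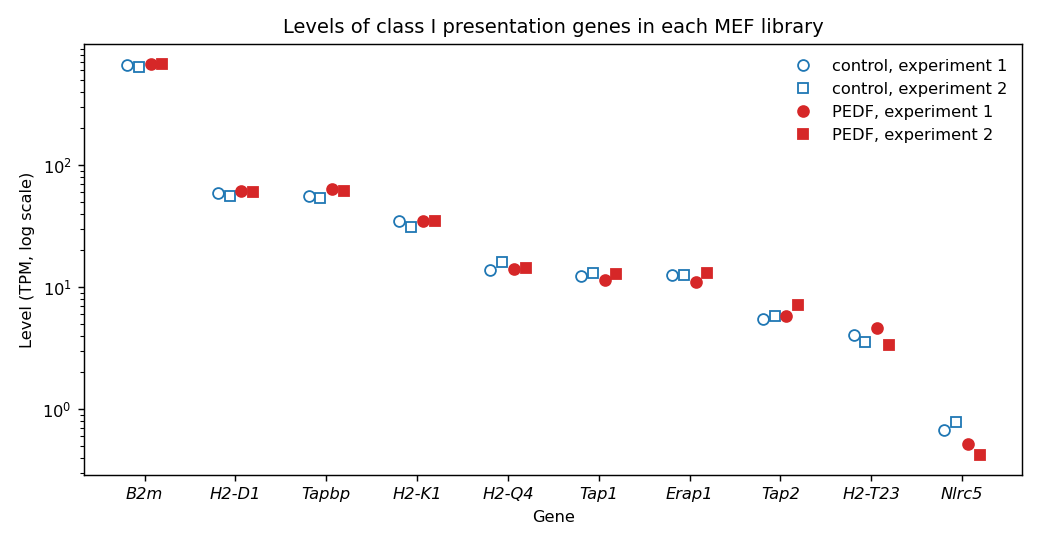
Level of each class I presentation gene (TPM, log scale) in the 4 MEF libraries. Open symbols are control and filled symbols PEDF; circles are experiment 1 and squares experiment 2. B2m lies at 632 to 679 TPM, and Nlrc5 at 0.42 to 0.78 TPM.

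After 24 h of PEDF, 9 of the 10 class I presentation genes had a fitted fold between 0.96 and 1.16 of the control level. Tapbp, the gene of tapasin, was 1.16-fold higher (95% interval 1.02 to 1.31) and was higher in both experiments. Tap2 was also 1.16-fold higher (95% interval 0.90 to 1.51) and higher in both experiments. B2m and the classical heavy chain genes H2-K1 and H2-D1 were 1.06-fold, 1.07-fold and 1.06-fold higher, within the spread between libraries. Nlrc5 was 0.65-fold the control level (95% interval 0.38 to 1.11). None of the 10 members had an adjusted p under 0.05 in the edgeR quasi-likelihood test of 2 against 2 libraries, in which 0.00516% of all genes tested (1 gene) were called. At an unadjusted p under 0.05, 1 of the 10 passed, Tapbp, against 6.88% of all genes. DESeq2 called 3 of all genes, none of them a member. When the experiment was added as a block, which the shared embryos of each experiment allow, Tapbp alone passed with an adjusted p of 0.0258, in a fit that called 3.75% of all genes. The median log2 fold change of the members was 0.09, beside 0.0012 for all genes tested. Without control 2 that median was 0.0082 and without control 1 it was 0.14. By direction, 5 of 10 members were higher with PEDF in both experiments and 2 of 10 were lower in both, against 30.1% and 28.8% of all genes. The control and PEDF libraries did not overlap for 3 of 10 members (Tap2 and Tapbp higher, Nlrc5 lower), against 37.3% of all genes. These counts over 10 genes are a description, and no test was made of them.

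**Figure D2:**
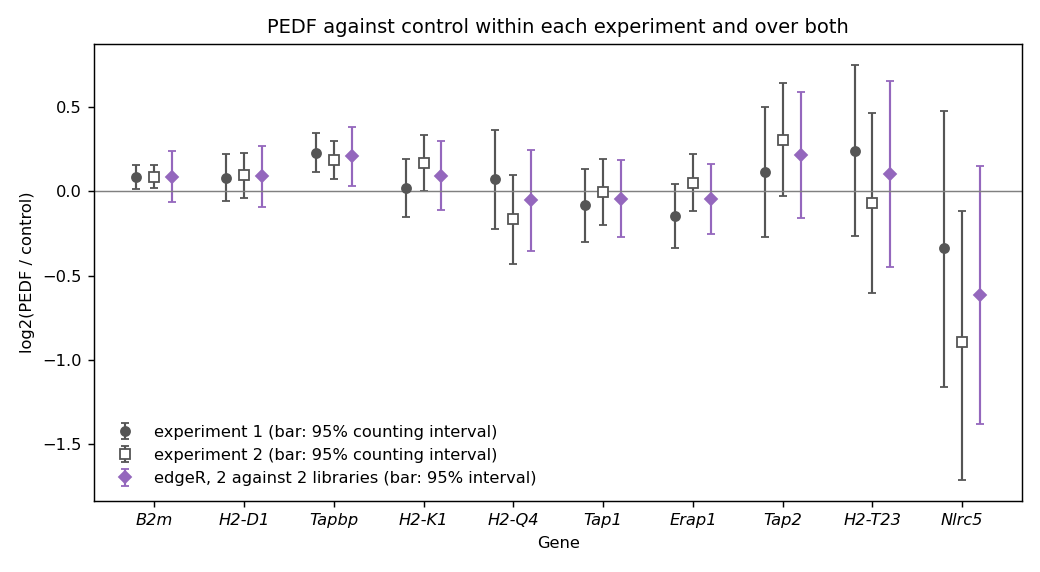
The log2 ratio of PEDF to control for each member within experiment 1 (filled circles) and experiment 2 (open squares), with 95% intervals for counting error only, and the edgeR value over both experiments with its 95% interval (diamonds). For Tapbp all 3 intervals lie above 0, and for 9 of the 10 genes the edgeR interval crosses 0.

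The heavy chain genes form the polymorphic subunit that holds the peptide. H2-K1 (chr17:33996017-34000347, minus strand) is a classical class I gene that presents peptides to CD8 T cells. It was measured at 36.6 and 31.7 CPM in control 1 and control 2, and at 37.1 and 35.7 CPM in PEDF 1 and PEDF 2. The groups overlapped, since control 1 was above PEDF 2. Over both experiments H2-K1 had a log2 fold change of 0.09 ± 0.10 (SE; adjusted p = 0.874), and it was -0.010 without control 2. H2-D1 (chr17:35262730-35267499, plus strand), the other classical gene of this list, had 54.5 and 50.0 CPM in control 1 and control 2, and 57.6 and 53.5 CPM in PEDF 1 and PEDF 2. It was 5.81% higher with PEDF in experiment 1 and 6.96% higher in experiment 2. The groups overlapped, since control 1 was above PEDF 2, a library of the other experiment. The log2 fold change of H2-D1 was 0.09 ± 0.09 (SE; adjusted p = 0.859), from 0.026 without control 2 to 0.15 without control 1, and 0.035 without PEDF 1. With the experiment as a block, edgeR gave 0.09 ± 0.07 (SE; adjusted p = 0.631).

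The non-classical genes differed in direction between experiments. H2-T23 (chr17:36029773-36032855, minus strand) encodes Qa-1, a ligand of the CD94-NKG2A receptor of natural killer cells. It had 61 and 63 counts in control 1 and control 2 and 76 and 60 counts in PEDF 1 and PEDF 2, or 4.13, 3.53, 4.89 and 3.37 CPM in the same order. PEDF 1 was the highest and PEDF 2 the lowest library. The log2 fold change of 0.10 ± 0.26 (SE; adjusted p = 0.949) turned to -0.011 without control 2 and to -0.18 without PEDF 1. H2-Q4 (chr17:35379617-35385290, plus strand), a gene of the Qa region, was at 12.7 and 14.4 CPM in control 1 and control 2, and at 13.3 and 12.9 CPM in PEDF 1 and PEDF 2. Both PEDF libraries lay between the controls, and the log2 fold change was -0.05 ± 0.14 (SE; adjusted p = 0.953), or 0.044 without control 2. Class I genes resemble each other in sequence, genes can overlap at 1 locus, and the counts were of uniquely mapped reads. Of the 100-base windows of the longest annotated H2-Q4 transcript, 14.62% occurred in a transcript of another gene on either strand, mostly in the overlapping antisense gene Gm11131. In H2-D1 the share was 4.643%, mostly with its paralogue H2-Q1, in H2-T23 it was 3.932%, and in H2-K1 it was 0%. Outside the heavy chains it was 14.04% in Tapbp, 13.26% in Erap1 and 5.354% in Tap2, mostly with genes that overlap them on the opposite strand, and 0% in B2m, Tap1 and Nlrc5. Levels of genes with shared windows are less certain.

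B2m (chr2:122147686-122153083, plus strand) encodes the light chain of all these molecules. It had 201 and 188 CPM in control 1 and control 2, and 213 and 200 CPM in PEDF 1 and PEDF 2, with 2960 to 3558 counts behind each value. The increase with PEDF was 6.27% in experiment 1 and 6.30% in experiment 2. The 95% counting intervals of the log2 ratio, 0.02 to 0.16 in both, excluded 0. Control 1 and PEDF 2, which are of different experiments, were at nearly the same level. Over both experiments the log2 fold change was 0.09 ± 0.07 (SE; adjusted p = 0.818), and 0.09 ± 0.05 (SE; adjusted p = 0.409) by edgeR with the block. It was 0.040 without control 2 or without PEDF 1, 0.14 without PEDF 2 and -0.0011 with the block and the length trend removed. The ratio of B2m to the summed TPM of the 4 heavy chain genes was 5.85, 5.91, 5.93 and 5.95 in control 1, control 2, PEDF 1 and PEDF 2, with both PEDF libraries slightly above the controls, and this ratio was not tested. H2-K1 and H2-D1 together made up 81.7% to 84.3% of the TPM of these 4 genes. Other class I genes were not part of this sum, such as H2-T22 at 23.4 TPM and Fcgrt at 44.0 TPM.

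Tap1 and Tap2 encode the subunits of the peptide transporter. Tap1 (chr17:34187553-34197225, plus strand) had 24.0 and 24.4 CPM in control 1 and control 2, and 22.6 and 24.4 CPM in PEDF 1 and PEDF 2, and 3 of the 4 libraries were close to each other. For Tap1 the log2 fold change was -0.04 ± 0.11 (SE; adjusted p = 0.95), and 0.0075 without PEDF 1. Tap1 shares 212 exon bases with the opposite-strand gene Psmb9. Psmb9 had 30 and 27 counts in the controls and 37 and 42 with PEDF (log2 fold change 0.43, adjusted p = 0.812). Tap2 (chr17:34203527-34216321, plus strand) had 7.32 and 7.57 CPM in control 1 and control 2, and 7.91 and 9.37 CPM in PEDF 1 and PEDF 2. Both PEDF libraries were above both controls, with PEDF 2 standing apart, and the log2 fold change was 0.22 ± 0.18 (SE; adjusted p = 0.816). Without PEDF 2 it was 0.088 and without PEDF 1 it was 0.33. The ratio of Tap1 to Tap2, in TPM, was 2.26 and 2.23 in the controls and 1.98 and 1.79 with PEDF, and this ratio was not tested. Tap2 shares 533 exon bases with the opposite-strand gene Gm15821, which had 38 and 49 counts in the controls and 48 and 68 with PEDF (log2 fold change 0.38, adjusted p = 0.798).

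Tapbp (chr17:33915899-33929292, plus strand) encodes tapasin, which holds the empty class I molecule at the TAP transporter while peptides are exchanged. Its counts were 1067 and 1203 in control 1 and control 2, and 1319 and 1368 in PEDF 1 and PEDF 2. Scaled by library these were 72.3, 67.4, 84.9 and 76.8 CPM, and both PEDF libraries were above both controls. The PEDF library was higher by 17.4% (experiment 1) and 13.8% (experiment 2), and both counting intervals of the log2 ratio, 0.11 to 0.35 and 0.07 to 0.30, excluded 0. Across both experiments Tapbp had a log2 fold change of 0.21 ± 0.08 (SE; unadjusted p = 0.0217, adjusted p = 0.696). With the experiment as a block the SE was 0.06 and the adjusted p was 0.0258. With the trend of fold change with gene length removed as well, the log2 fold change was 0.18 ± 0.06 (SE) and the adjusted p was 0.0959, in a fit that called 2.22% of all genes and 0 of the 10 members. The call was made by edgeR with the block only. DESeq2 without the block gave an adjusted p of 1.00, limma on log2(TPM + 1) with the block gave 0.455, and DESeq2 with the block gave an SE of 0.12 and no adjusted p. Tapbp shares 904 exon bases with Gm19412, an antisense gene on the other strand, and 149 exon bases with Zbtb22 on its own strand. Gm19412 had 320 and 351 counts in the controls and 405 and 427 with PEDF, log2 ratios of 0.27 and 0.28 in experiments 1 and 2. Its counts were 0.29 to 0.31 of those of Tapbp in every library. The library kit kept strand, but the strand setting of the counting is not given in the sources used here, and how far the reads of the pair can be told apart was not tested. Zbtb22 had a log2 fold change of -0.02 (adjusted p = 0.979).

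Erap1 (chr13:74639568-74693201, plus strand) trims the amino ends of peptides to the length that class I molecules bind. It had 32.6 and 31.8 CPM in control 1 and control 2, and 29.5 and 32.9 CPM in PEDF 1 and PEDF 2. PEDF 1 was the lowest and PEDF 2 the highest library. Its log2 fold change was -0.04 ± 0.10 (SE; adjusted p = 0.947), and 0.033 without PEDF 1. Erap1 shares 834 exon bases with the opposite-strand gene Cast, which had 2172 to 2963 counts.

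Nlrc5 (chr8:94434356-94527272, plus strand) encodes the class I transactivator. It had 30 and 41 counts in control 1 and control 2 and 25 and 22 counts in PEDF 1 and PEDF 2, or 2.03, 2.30, 1.61 and 1.23 CPM. Both PEDF libraries were below both controls. The log2 ratio was -0.34 in experiment 1, with a counting interval of -1.16 to 0.48, and -0.90 in experiment 2, with an interval of -1.71 to -0.12. Over both experiments the log2 fold change was -0.62 ± 0.36 (SE; unadjusted p = 0.108, adjusted p = 0.761), and Nlrc5 was lower in 14 of 14 alternative settings, passing the test in none of the 13 that gave it an adjusted p, 4 of which had 1 library in a group. At these counts a difference in Nlrc5 of the observed size was not detectable beyond the spread.

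The fold change of a gene depended on its exon length in these libraries. For genes whose mean log2 CPM was above 3, the median log2 fold change with the block was 0.088 for those under 1000 exon bases, 0.093 from 1000 to 2000, 0.046 from 2000 to 4000, -0.013 from 4000 to 8000 and -0.079 over 8000. The slope per doubling of length was -0.04 in experiment 1 and -0.06 in experiment 2. Libraries of the same treatment also differed in this way, with slopes of 0.05 between the controls and 0.03 between the PEDF libraries. B2m is the shortest member, with 860 exon bases, and Nlrc5 the longest, with 8493. With the trend removed, B2m was at -0.0011 and H2-K1, H2-D1 and H2-T23 at 0.05, 0.03 and 0.04. Tapbp and Tap2 stayed at 0.18 and 0.19, and Nlrc5 at -0.57. H2-Q4 moved away from 0, from -0.05 with the block to -0.11, and Tap1 and Erap1 were at -0.03 and -0.0020. The median of the members fell to 0.014.

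**Figure D3:**
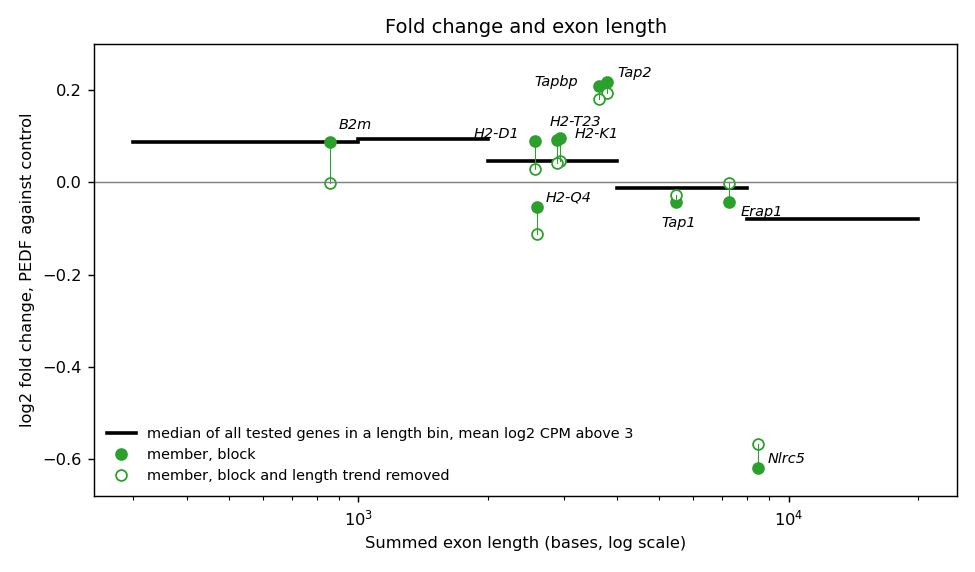
The log2 fold change of each member against its summed exon length (bases, log scale), from the edgeR fit with the experiment as a block (filled) and with the length trend removed as well (open). Black bars are the medians of all tested genes in 5 bins of length, with a mean log2 CPM above 3. The bars lie at 0.088 and 0.093 in the bins up to 2000 bases and at -0.079 above 8000 bases, and B2m moves from 0.088 to -0.0011.

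Between experiments, none of the 10 members differed at an adjusted p under 0.05 in the edgeR test with the treatment as a term, in which 4.49% of all genes were called. At an unadjusted p under 0.05, 1 of the 10 passed, Tapbp, against 14.8% of all genes. DESeq2 called 102 genes and gave an adjusted p for 1 member only, B2m (0.579). Tapbp had the smallest p, with a log2 difference of -0.12 (experiment 2 minus experiment 1; unadjusted p = 0.0465, adjusted p = 0.324). B2m was at -0.09 (adjusted p = 0.349), H2-K1 at -0.13, H2-D1 at -0.12 and H2-T23 at -0.39. Tap1, Tap2, Erap1 and H2-Q4 had differences of 0.07, 0.15, 0.06 and 0.07. Thus 6 of the 10 members had lower and 4 had higher values in experiment 2. Of the macrophage markers, 4 of 12 were called, all lower in experiment 2, and their sum was lowest in control 2. In that library B2m, H2-D1, H2-K1 and Tapbp were also lowest, but H2-Q4, Tap1 and Nlrc5 were highest. H2-T23, Tap2 and Erap1 had their lowest values in other libraries. Lyz2, the lysozyme of myeloid cells, was at 60.5 and 26.3 CPM in control 1 and control 2 and at 62.6 and 46.1 CPM in PEDF 1 and PEDF 2. In the comparison of PEDF with control, Lyz2 was the 1 macrophage marker of 12 called with the block (log2 fold change 0.39, adjusted p = 2.01e-05), against 3.75% of all genes. Of the 12 markers, 7 were higher with PEDF in both experiments and 1 was lower in both, against 30.1% and 28.8% of all genes, and the part of these cells in the value of Tapbp was not tested.

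**Figure D4:**
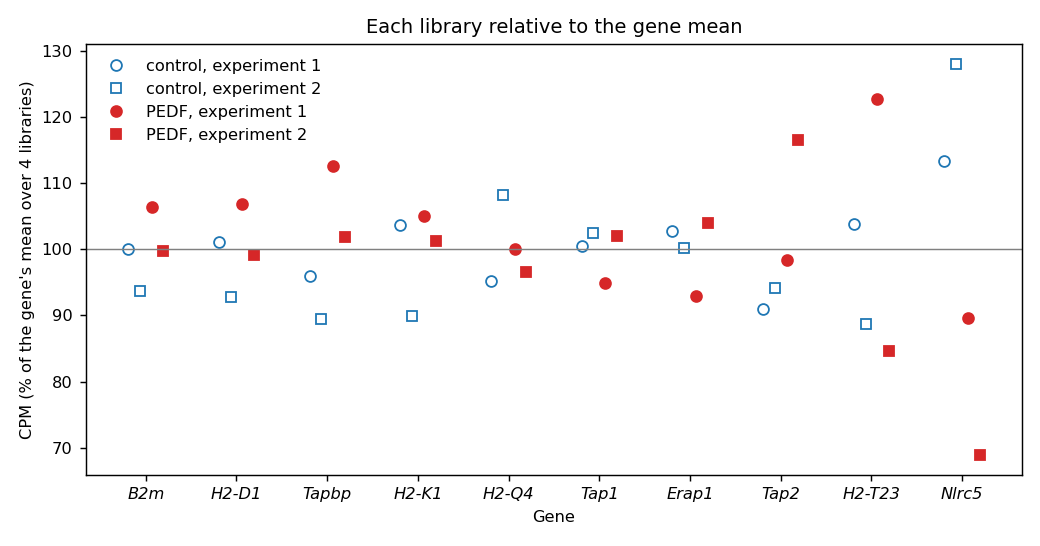
CPM of each member in the 4 libraries as a percentage of that gene's mean over the libraries. Open symbols are control and filled symbols PEDF; circles are experiment 1 and squares experiment 2. Both PEDF libraries lie above both controls for Tapbp and Tap2 and below them for Nlrc5. Control 2 is the lowest library for B2m, H2-D1, Tapbp and H2-K1 and the highest for H2-Q4, Tap1 and Nlrc5.

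The rest of the pathway was read from 9 lists in the same fits. Without the block no gene of any list was called by edgeR. An unadjusted p under 0.05 was found for 6 of their 88 tested genes, 6.82% against 6.88% of all genes, namely Fcgrt, Uggt1, Psmb8, Psmb6, Nfyb and Zbp1. With the block, in which 1.67% of all genes were called higher and 2.07% lower, 4 genes of these lists were called. Among the heavy chains of other class I genes, 12 of 18 were tested and 1 was called. This was Fcgrt, the heavy chain of the neonatal Fc receptor, which pairs with B2m and carries immunoglobulin G. It had 31.4 and 26.0 CPM in control 1 and control 2, and 38.2 and 35.2 CPM in PEDF 1 and PEDF 2, with no overlap of the groups. With the block Fcgrt had a log2 fold change of 0.36 ± 0.09 (SE; adjusted p = 0.00277), and it was 0.29 with an adjusted p of 0.0449 when the length trend was removed. H2-Q2 had no count, and 5 genes of this list were below the filter.

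Of the 10 partners and chaperones of the peptide loading complex, 2 were called lower with the block and none was called higher. Uggt1, the glucosyltransferase that checks the folding of glycoproteins and of class I molecules, went from 271 and 310 CPM in control 1 and control 2 to 222 and 263 CPM in PEDF 1 and PEDF 2. Its log2 fold change was -0.26 ± 0.05 (SE; adjusted p = 6.97e-06). PEDF 2 lay close to control 1, a library of the other experiment. With the length trend removed the log2 fold change of Uggt1 was -0.17 (adjusted p = 0.0198). Ganab, the catalytic subunit of glucosidase II, had 436 and 460 CPM in the controls and 377 and 429 CPM with PEDF (log2 fold change -0.16, adjusted p = 0.0183; adjusted p = 0.0475 with the length trend removed).

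The proteasome supplies the peptides. None of 6 genes of the immunoproteasome and its activator was called. Psmb8, an interferon-inducible catalytic subunit, had the smallest p, with 19 and 34 counts in control 1 and control 2 and 50 and 54 counts in PEDF 1 and PEDF 2. Its log2 fold change was 0.95 ± 0.33 (SE; unadjusted p = 0.0101, adjusted p = 0.696), with an adjusted p of 0.0634 with the block. Of the 3 constitutive catalytic subunits, Psmb6 was called higher with the block (124, 112, 142 and 135 CPM in control 1, control 2, PEDF 1 and PEDF 2; log2 fold change 0.23, adjusted p = 0.000934). It did not pass with the length trend removed (0.16, adjusted p = 0.0920). None of 6 other peptidases was called. The smallest p there was that of Lnpep, an endosomal aminopeptidase, at -0.17 (adjusted p = 0.739 without the block).

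The regulators and the other targets of interferon signalling were not called either. None of 11 transcription factors of class I promoters, 12 genes of interferon receptors and signalling, 20 interferon-stimulated genes and 8 tested class II presentation genes passed in either fit. Among the transcription factors the smallest p was that of Nfyb, a subunit of the CCAAT-binding factor NF-Y, at a log2 fold change of 0.22 (adjusted p = 0.707). Ifngr2, a chain of the interferon gamma receptor, was at 0.17 (adjusted p = 0.738). Zbp1, a sensor of Z-form nucleic acids, had 3 counts in each control and 13 and 20 counts in PEDF 1 and PEDF 2 (unadjusted p = 0.00426, adjusted p = 0.696). It was the smallest p among the interferon-stimulated genes, of which 7 of 20 were higher in both experiments and 3 of 20 lower in both, against 30.1% and 28.8% of all genes. Cd74, the invariant chain of class II molecules, had 22 and 18 counts in the controls and 12 and 10 with PEDF (log2 fold change -0.90, adjusted p = 0.758).

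**Figure D5:**
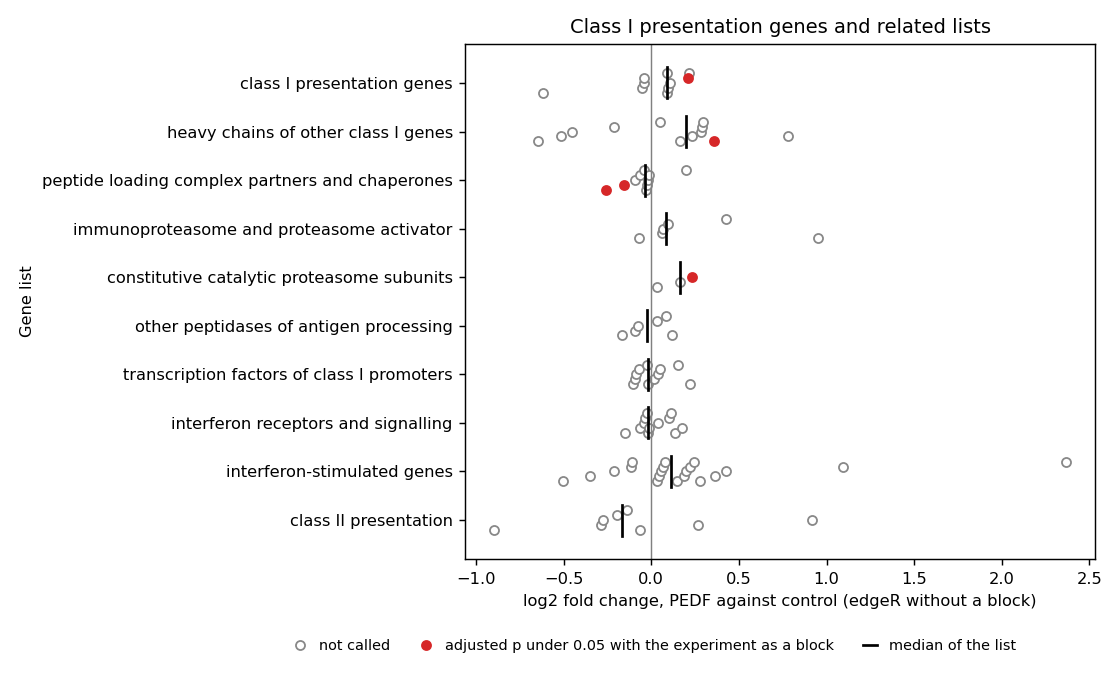
The log2 fold change (PEDF against control, edgeR without a block) of every tested gene of the class I presentation genes and of 9 related lists, 1 row a list. Red points passed an adjusted p of 0.05 in the block fit, and black bars are list medians. The 5 red points are Tapbp, Fcgrt, Uggt1, Ganab and Psmb6, and the medians lie between -0.17 and 0.20.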

How the data were processed

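RNA-seq of poly(A) RNA (directional kit) was made in 4 MEF libraries. Per the submitters' processing notes, the authors used FastQC 0.11.7, Trimmomatic 0.38, HISAT2 2.1.0, SAMtools 1.9 and featureCounts 1.6.3 on mm10. The deposited counts are raw whole-number counts of uniquely mapped reads per gene, and the deposited TPM are the authors' own conversion. TPM was proportional to count over exon length within 1% for 98.4% of 14495 genes with over 20 counts in control 1. The annotation and strand setting are not given in the sources used here.

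Genes with at least 10 counts over all libraries (19384 of 55487) were tested with edgeR 4.0.16 (R 4.3.3; TMM, robust quasi-likelihood F-test, Benjamini-Hochberg adjustment over all genes tested, threshold 0.05). CPM are counts scaled to the TMM-adjusted library size. The fit without the experiment as a block was primary, and the fit with it an alternative. The experiment number pairs the libraries, since each experiment used its own embryos. The difference between experiments in control correlated with that in PEDF (r = 0.423 across 10722 genes with a mean log2 CPM above 3, which are not independent replicates). Alternatives used DESeq2 1.42.0, limma 3.58.1 on log2(TPM + 1) or log2(TPM + 0.1), other filters and factors, removal of the length trend (natural spline, 5 degrees of freedom) and leaving out each library. The 95% intervals within an experiment are exact binomial, conditional on the summed count, and cover counting error only, since reads without molecular identifiers are not independent molecules. Exon lengths and overlaps came from a GENCODE annotation of GRCm38. Scripts were tested on simulated data.

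The members and the lists were chosen with earlier results of these data known. The members are named with all values. From each pathway list the text names genes called in either fit, at most 4 a list, and otherwise the gene with the smallest unadjusted p. One listed peptidase, Nrdc, did not match a row of the matrix. Cell type markers are given as summed levels with those at 0, and not every marker is reported here. The called fibroblast markers, Lyz2, H2-T22 and the overlapping genes were named after their values were seen. Authors' fold changes were not used.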

Additional observations from a re-analysis of the deposited data

How the results depend on the processing

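With 2 libraries a group, the spread is estimated from few samples, and Nlrc5 (22 to 41 counts) and H2-T23 (60 to 76 counts) are limited by depth as well. Of the 10 members, 1 (Tapbp) was called with the replicate block and 0 in the primary fit and in 12 other alternatives. In the remaining one, DESeq2 with the block, only B2m had an adjusted p (0.683), and it was not called. With the block, the call of no other member changed. Tapbp, Tap2 and H2-D1 were higher and Nlrc5 lower in 14 of 14 alternatives, with Tapbp between 0.14 and 0.28 (log2). B2m was at -0.0011 with the block and the length trend removed. With 1 library left out, the lone library of its group is assumed to vary like the other group. In these fits B2m ran from 0.040 to 0.14, H2-D1 from 0.026 to 0.15, Tap2 from 0.088 to 0.33, Nlrc5 from -0.81 to -0.43, H2-K1 ran from -0.010 (without control 2) to 0.20, H2-Q4 from -0.14 to 0.044 (without control 2), Tap1 from -0.096 to 0.0075 (without PEDF 1), Erap1 from -0.13 to 0.033 (without PEDF 1), and H2-T23 from -0.18 (without PEDF 1) to 0.36, with -0.011 without control 2. The median of the members was 0.014 with the block and the length trend removed, 0.058 by limma on log2(TPM + 1) with or without the block, 0.063 on log2(TPM + 0.1), and 0.0082 to 0.14 with 1 library left out. The number of all genes called for PEDF was 1 in the primary fit, 3 by DESeq2, 106 without the filter, 0 with filterByExpr, 726 with the replicate block, 119 by DESeq2 with the block, 430 with the block and the length trend removed, 0 by limma in each of 3 settings, and 2 to 205 with 1 library left out (205 without control 1, 24 without PEDF 2). Between experiments, 870 genes were called in the primary fit, 102 by DESeq2 and 11 without the treatment term. The cause of these shifts was not tested.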
